A study of Capra hircus with 20 samples.

Results

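The erythroid miRNAs described here are those of the miR-451 and miR-144 hairpins in goat hypothalamus, followed as a gauge of the blood that tissue retains. They were chosen by name: every listed miRNA called miR-451, miR-451a, miR-144 or miR-486, on either arm of its hairpin. The rule found 4 of the 683 listed miRNAs, namely chi-miR-451-5p, chi-miR-451-3p, chi-miR-144-5p and chi-miR-144-3p. miR-451a and miR-486 were not analysed here. Small RNA of whole hypothalamus from Jining grey goats was sequenced at 1, 60, 120 and 180 days after birth, with 5 biological replicates at each age and 20 libraries in all. The goats shared 1 breeding environment and fed freely, so the groups differ by age alone as far as the labels go. Sex, perfusion of the tissue and any other removal of blood are not given in the labels.

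miR-144 and miR-451 are made from a single primary transcript that the transcription factor GATA1 switches on in red cell precursors, and both stay abundant in circulating red cells. The miR-451 hairpin is too short for Dicer and is cut by Argonaute 2, so its functional strand comes from the 5p arm, whereas miR-144 is cut by Dicer and can yield both arms. miR-451 in particular is used as a marker of red cells and their lysis in blood samples, and brain tissue that was not flushed carries it in its vessels. In the RefSeq gene table of the goat assembly ARS1.2, MIR451 and MIR144 were direct neighbours, lying between ERAL1 and FLOT2.

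Values are reads per 1000000 miRNA reads of the library (RPM). The libraries held 4018002 to 8324928 miRNA reads with a median of 6978229, and a floor of 3 reads equalled 0.360 to 0.747 RPM. The library least like the others was replicate 2 of day 1, whose Spearman correlations with them had a median of 0.873. No other library was under 0.918. It also had the fewest reads. The summed level of the neuronal list ran from 95748 to 341024 RPM and was largely miR-9-5p, which averaged 174740 RPM. Of the same list, miR-124a averaged 896 RPM and miR-137 52.8 RPM. The sum was not set against another tissue, so it does not test the tissue label.

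miR-451-5p carried nearly the whole erythroid signal. It averaged 398 ± 375 RPM (SD, n = 20) and ranked 111 of 683 by mean level, with 708 to 11032 reads in a library. This was 0.00863% to 0.153% of the miRNA reads. miR-144-5p ranked 315 and had 8 to 134 reads in a library, above the floor in 20 of 20. miR-144-3p ranked 424 with 79 reads over the 20 libraries together and was above 3 reads in 5 of them. miR-451-3p ranked 553 with 16 reads in all, never above 3 in a library, and was not tested. Of the 4 miRNAs, 3 therefore entered the tests, among 414 tested. miR-144-3p met the filter on low values in exactly the 5 libraries that the filter requires.

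On day 1, miR-451-5p stood at 195, 457, 1531, 86.3 and 255 RPM in replicates 1 to 5. Day 60 gave 176, 170, 218, 148 and 278 RPM. Day 120 gave 540, 1325, 536, 445 and 232 RPM. The day 60 libraries lay close together, whereas replicate 3 on day 1 and replicate 2 on day 120 were far above the others of their age. On day 180 the level was 346, 265, 262, 180 and 316 RPM, again a narrow group. Means were 505 ± 589, 198 ± 51.5, 616 ± 416 and 274 ± 63.4 RPM (SD, n = 5 each) in order of age. Their order from highest to lowest was day 120, day 1, day 180 and day 60, and by medians day 120 at 536 RPM, day 180 at 265, day 1 at 255 and day 60 at 176. Every pair of ages overlapped. In a bulk sample, fewer cells of a type and less RNA per cell cannot be told apart.

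**Figure D1:**
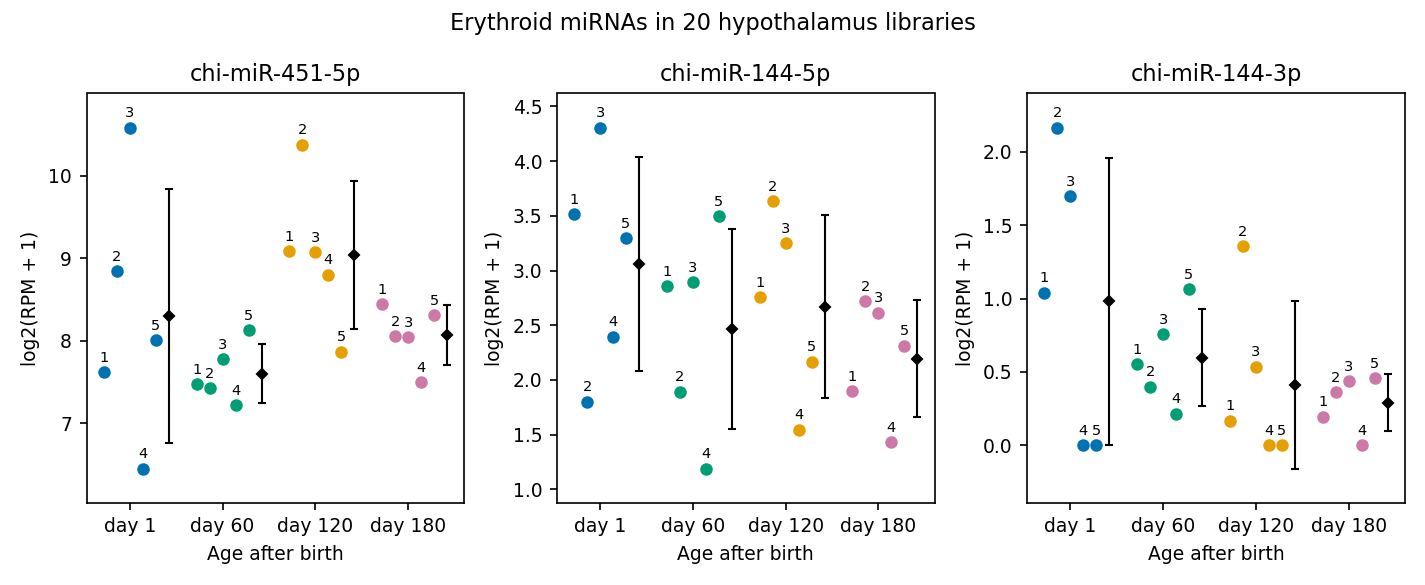
Level of miR-451-5p, miR-144-5p and miR-144-3p as log2(RPM + 1) by age, 1 coloured point per library with its replicate number; black diamonds and bars are the mean and SD of 5 libraries. Replicate 3 of day 1 and replicate 2 of day 120 have the highest miR-451-5p, at 1531 and 1325 RPM, and the ages overlap for each of the 3 miRNAs.

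miR-144-5p, the partner from the same transcript, stood far lower. It measured 10.4, 2.49, 18.8, 4.26 and 8.81 RPM on day 1 and 6.24, 2.72, 6.43, 1.28 and 10.3 RPM on day 60. On day 120 it measured 5.75, 11.4, 8.53, 1.92 and 3.49 RPM, and on day 180 2.72, 5.58, 5.13, 1.70 and 3.98 RPM. The libraries with the highest miR-451-5p on days 1, 60 and 120 also had the highest miR-144-5p of their age. On day 180 they differed: replicate 1 had the highest miR-451-5p but 2.72 RPM of miR-144-5p, against 5.58 RPM in replicate 2. Replicate 2 of day 1 also broke this order, with the second highest miR-451-5p and the lowest miR-144-5p of its age. Stage means were 8.96 ± 6.38, 5.39 ± 3.52, 6.22 ± 3.82 and 3.82 ± 1.62 RPM (SD, n = 5 each), differences that lay within the spread between animals.

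miR-144-3p was near or under the floor in most libraries. Day 1 gave 1.06, 3.48, 2.24, 0 and 0 RPM, and day 60 gave 0.468, 0.320, 0.689, 0.160 and 1.09 RPM. Day 120 gave 0.122, 1.56, 0.449, 0 and 0 RPM, and day 180 gave 0.143, 0.286, 0.354, 0 and 0.373 RPM. A count of 0, found in 5 libraries, allows up to 0.362 to 0.480 RPM there. The highest values were those of replicates 2 and 3 on day 1 and replicate 2 on day 120, followed by replicate 1 of day 1 with 8 reads and replicate 5 of day 60 with 7. The other 15 libraries, with 3 reads or fewer, could not be ordered at this depth.

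The arms were used very unequally. The 3p arm supplied 16 of the miR-451 reads against 56361 from the 5p arm, a share of 0.0284% over all libraries and at most 0.202% in one. For miR-144 the 3p arm supplied 79 reads against 862, or 8.40%. By library this share ran from 0% to 12%, except in replicate 2 of day 1, where 14 of 24 miR-144 reads were 3p, or 58.3% (95% Clopper-Pearson interval 36.6% to 77.9%). The 12% of replicate 2 on day 120 had an interval of 6.57% to 19.7%, which did not reach it. Replicate 4 of day 60, with only 9 miR-144 reads, had the sole interval among the other 19 libraries that did, at 0.281% to 48.2%. Over 144 hairpins with both arms counted, the median share of the lesser arm in replicate 2 of day 1 was 2.64%, within the 1.46% to 3.22% of the 20 libraries. Reads copied by PCR are not separate molecules, so these intervals and floors describe counting error alone.

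None of the 3 tested erythroid miRNAs passed the test of age. The question was whether blood-borne miRNA differed between stages after birth, and limma on log2(RPM + 1) called 0 of 18 erythroid changes at a Benjamini-Hochberg adjusted p under 0.05. At an unadjusted p under 0.05 it called 1, and edgeR and DESeq2 on the recovered reads also called 0 after adjustment. Against this, 3.86% of the 414 tested miRNAs passed between days 1 and 60, 3.38% between days 1 and 120, and 3.38% between days 1 and 180. The F test over the 4 ages passed 1.93%, with adjusted limma p-values of 0.393, 0.714 and 0.635 for miR-451-5p, miR-144-5p and miR-144-3p. edgeR passed 13.8%, 10.4% and 5.31% in the same 3 comparisons and 9.42% over the 4 ages, and DESeq2 passed 20.9%, 18% and 14.8% and 21.8%. In the 3 comparisons without day 1, 0% of miRNAs passed in limma, edgeR or DESeq2. limma had 13 at an unadjusted p under 0.05 for day 120 against 60, 3 for day 180 against 120 and 20 for day 180 against 60.

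The widest erythroid difference was that of miR-451-5p between days 60 and 120. It was 1.44 log2 units higher on day 120 (SE 0.56, 95% interval 0.29 to 2.58), or 2.71-fold, with a limma p of 0.0162 and an adjusted p of 0.913. It ranked 4 of 414 by size and 2 by p. All 5 day 120 libraries exceeded the day 60 mean and 4 exceeded every day 60 library, while replicate 5 at 232 RPM lay inside the day 60 range. The two-sided exact permutation test on the same values gave p = 0.0159, where 5 against 5 libraries allow 0.00794 at best, and 0.286 after adjustment over 18 tests. Without replicate 2 of day 120 the difference was 1.10. Between these ages 0 members of any list of cell markers were called by limma, edgeR or DESeq2. Of all 414 tested miRNAs, 52.4% were above 0 in this comparison. Some lists lay mostly above 0: 9 of 9 neuronal miRNAs were above 0 with a median of 0.53, 5 of 6 muscle miRNAs with 0.74, and 8 of 10 vessel miRNAs with 0.31. White cell miRNAs had 4 of 7 above 0 and a median of 0.01, and miRNAs abundant in red cells but shared with other tissues had 10 of 18 and 0.05, against 0.03 over all tested miRNAs. For liver and plasma miRNAs these were 2 of 3 and 0.39. The part of these lists in the miR-451-5p difference was not tested.

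After day 120, miR-451-5p was 0.97 log2 units lower on day 180 (difference -0.97, SE 0.56, limma adjusted p = 0.997; exact permutation p = 0.0476, adjusted 0.429). Each of the 5 day 180 libraries was under the day 120 mean, and the ages overlapped. Without replicate 2 of day 120 the difference was -0.64. From day 1 to day 60 the difference was -0.70 (limma adjusted p = 0.552), and without replicate 3 of day 1 it was -0.13, and without replicate 4 it was -1.16. DESeq2 gave -1.25 for it, at an adjusted p of 0.0972. From day 1 to day 120 it was 0.74 (limma adjusted p = 0.472). Single libraries moved this value from 0.28, without replicate 4 of day 1, to 1.31, without replicate 3 of day 1; it was 0.41 without replicate 2 of day 120, and DESeq2 gave 0.24. From day 1 to day 180 it was -0.23 (limma adjusted p = 0.856), and its direction turned under median-of-ratios scaling, to 0.01, and without replicate 3 of day 1, to 0.34. Scaling also bears on the whole table here: the median change of all tested miRNAs between days 1 and 180 was -0.25 in RPM and -0.03 with median-of-ratios scaling. The day 180 level stood 0.47 above day 60 (limma adjusted p = 0.987).

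For miR-144-5p the differences were smaller than those of miR-451-5p in 5 of the 6 comparisons of ages, and none passed. Between days 60 and 120 it differed by 0.21 (SE 0.52, limma adjusted p = 0.972), a direction that turned without replicate 4 of day 60, to -0.11, or without replicate 2 of day 120, to -0.04. Its widest difference was -0.87 from day 1 to day 180 (limma adjusted p = 0.348), beside a median of -0.25 for all miRNAs. For miR-144-3p the widest was also that between days 1 and 180, at -0.69 (SE 0.38, limma adjusted p = 0.310). Values of miR-144-3p are compressed by the pseudocount of 1 RPM, since most were below it.

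**Figure D2:**
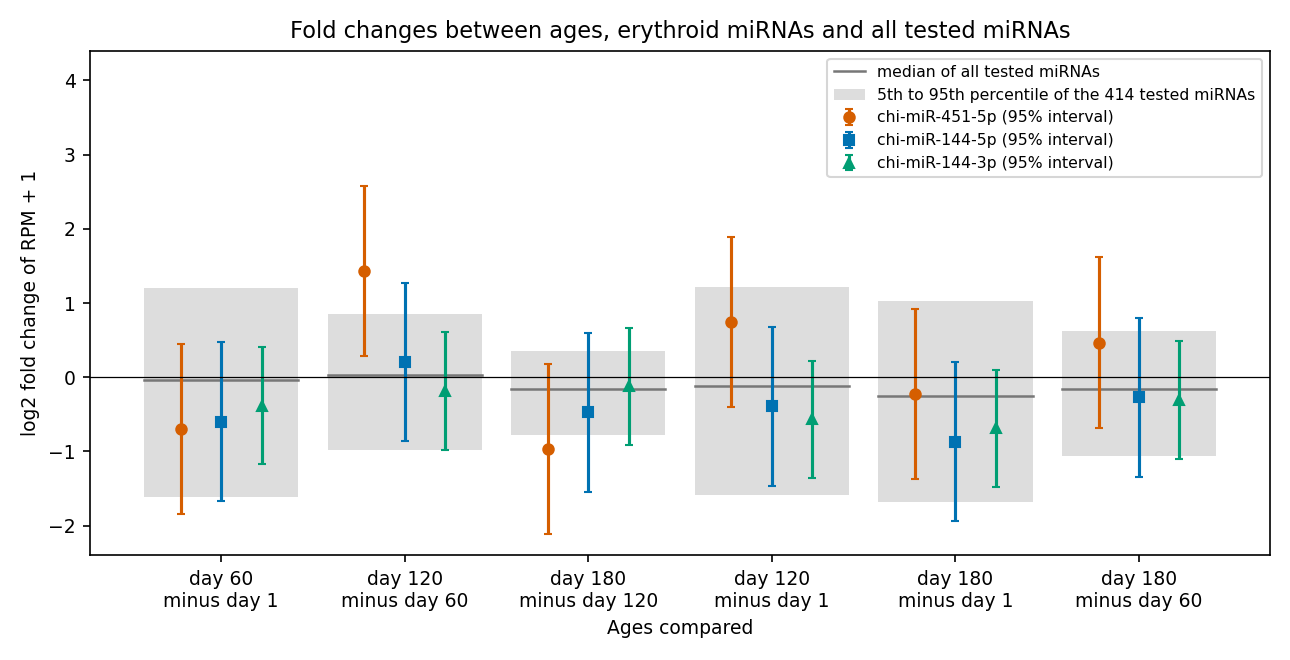
Differences between ages on the log2(RPM + 1) scale for miR-451-5p, miR-144-5p and miR-144-3p, with 95% intervals from limma; the grey band is the 5th to 95th percentile of the 414 tested miRNAs. The 1.44 of miR-451-5p between days 60 and 120 lies above the band, and none of the 18 differences passed adjustment.

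Besides its level, the spread of miR-451-5p between animals of an age varied. The highest library exceeded the lowest 17.7-fold on day 1 and 5.71-fold on day 120, but 1.88-fold on day 60 and 1.93-fold on day 180. On the log2 scale its SD was 1.54, 0.35, 0.90 and 0.36 in order of age. Of 414 miRNAs it ranked 61 and 59 by SD on days 1 and 120, and 375 and 365 on days 60 and 180, where it was among the steadier ones. The median SD of all tested miRNAs was 0.94, 0.72, 0.57 and 0.67. miR-144-5p had SDs of 0.98, 0.92, 0.84 and 0.53. These spreads are descriptions over 5 libraries each and were not tested against each other.

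**Figure D3:**
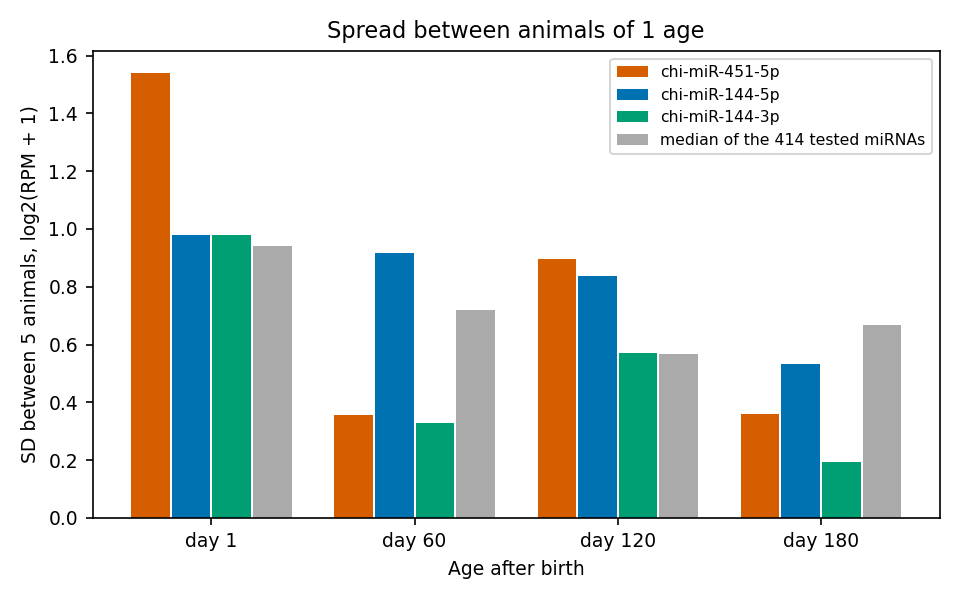
SD of log2(RPM + 1) over the 5 libraries of an age for the erythroid miRNAs, as bars from 0, beside the median SD of the 414 tested miRNAs. The SD of miR-451-5p is 1.54 on day 1 and 0.90 on day 120, and 0.35 and 0.36 on days 60 and 180.

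The ratio of miR-451-5p to miR-144-5p sets the members of the shared transcript against each other. It ran from 18.7 to 232 by library with a median of 64.7. Its medians in order of age were 29.0, 33.9, 94.0 and 79.4. The ages overlapped: day 1 held 18.7 to 184, day 60 27.1 to 115, day 120 62.9 to 232 and day 180 47.4 to 127. The highest ratio of each age, in order of age, rested on only 10, 8, 12 and 19 reads of miR-144-5p, so these values are imprecise. Age accounted for 30.3% of the variance of the log2 ratio, which a permutation test did not pass (p = 0.116, adjusted 0.116 over 2 ratios). Replicate 2 of day 1, with the highest ratio of its age, decided this value: without it the share was 48.7% and the adjusted permutation p was 0.018. The log2 ratio to miR-144-3p averaged 7.32 ± 1.08, 7.0 ± 0.05, 8.63 ± 0.46 and 7.78 ± 0.29 (SD, n = 5 each) by age. Age accounted for 56.1% of its variance (adjusted permutation p = 0.0108). With a pseudocount of 5 RPM this was 36.0% and the adjusted permutation p was 0.0697, and in 15 libraries miR-144-3p had at most 3 reads. In those 15 the added 1 RPM outweighed miR-144-3p itself, so the ratio there does not measure the proportion between the miRNAs.

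**Figure D4:**
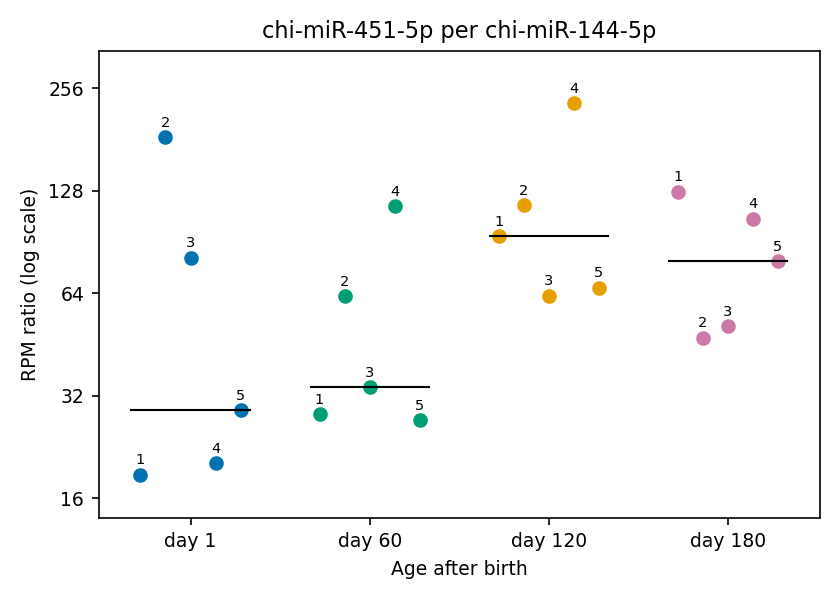
Ratio of miR-451-5p to miR-144-5p in RPM by age on a log axis, 1 point per library with its replicate number; lines are medians of 5. Medians are 29.0 and 33.9 on days 1 and 60, and 94.0 and 79.4 on days 120 and 180, with overlapping ranges.

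Across the 20 libraries, miR-451-5p was set against its partners, a neutrophil miRNA (miR-223-3p), an endothelial miRNA (miR-126-3p) and sequencing depth, 5 relations in all, on log2(RPM + 1). With miR-144-5p, Pearson's r was 0.50 (permutation p = 0.0258, adjusted 0.0429) and Spearman's rho 0.37 (adjusted permutation p = 0.19). With miR-144-3p, r was 0.55 (permutation p = 0.0123, adjusted 0.0306) and rho 0.38 (adjusted permutation p = 0.19). Both rested on the highest libraries: without replicate 3 of day 1 and replicate 2 of day 120, r was 0.12 and 0.26 over 18 libraries.

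The highest of these correlations was that with the vessel miRNA, though differences between correlations were not tested. With miR-126-3p, r was 0.69 (permutation p = 0.00104, adjusted 0.0052) and rho 0.63 (adjusted permutation p = 0.0181). Without the same 2 libraries r was 0.53, with an adjusted permutation p of 0.122. With miR-223-3p, r was 0.30 (permutation p = 0.2, adjusted 0.249) and rho 0.11, and with depth r was 0.03 (adjusted permutation p = 0.892). Within ages, after stage means were subtracted, r was 0.54 for miR-144-5p (adjusted permutation p = 0.0643), 0.77 for miR-144-3p (0.0226), 0.63 for miR-126-3p (0.0226) and 0.26 for miR-223-3p (0.268). miR-144-3p was above 3 reads in only 5 of the 20 libraries, and the 2 with the highest miR-451-5p were among them. The values within ages were not computed without those 2 libraries.

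**Figure D5:**
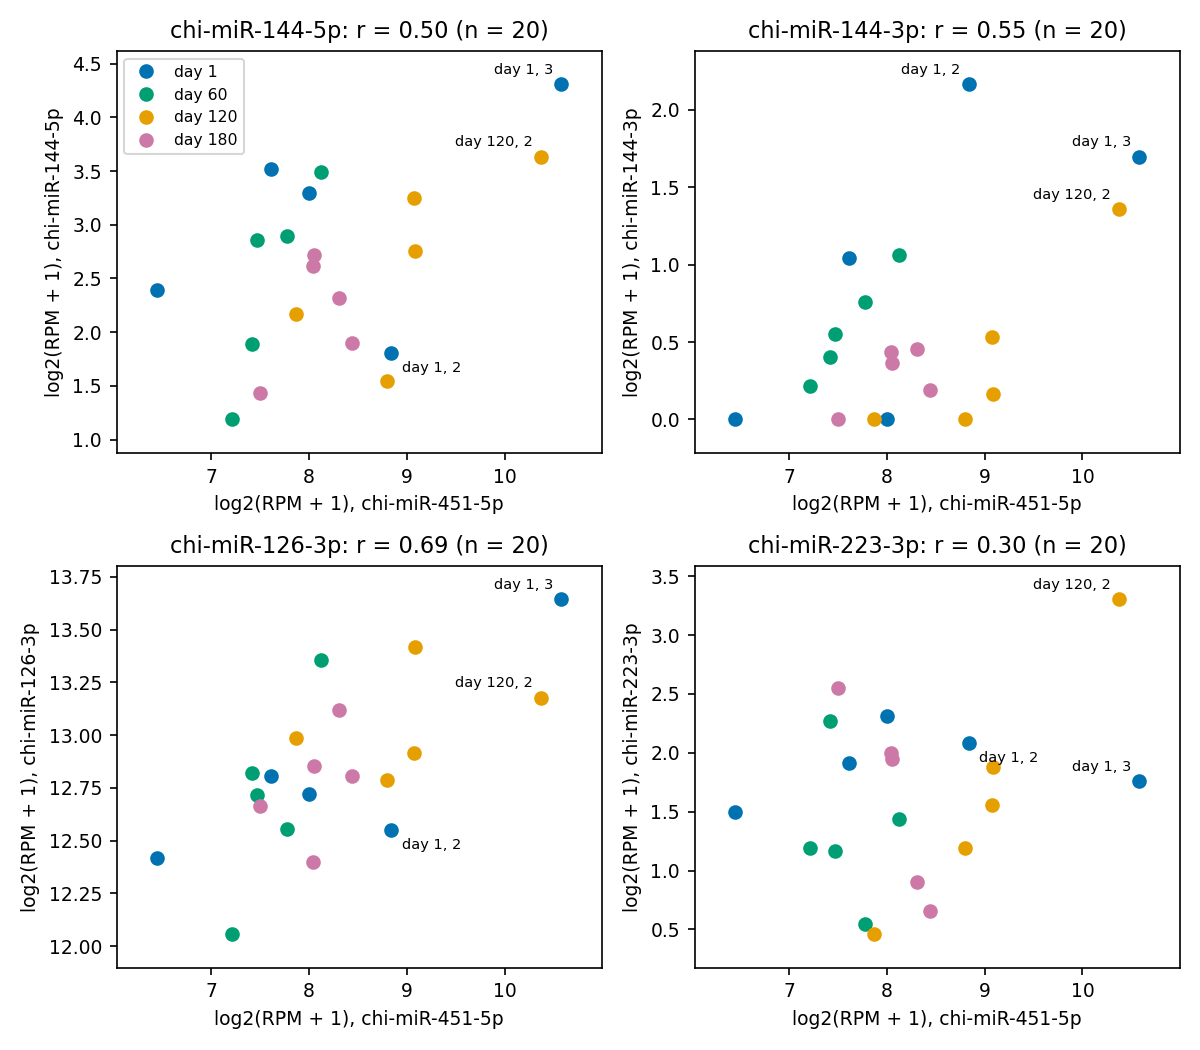
miR-451-5p on the x axis against miR-144-5p, miR-144-3p, miR-126-3p and miR-223-3p on the y axes, as log2(RPM + 1), 1 point per library coloured by age. The libraries with 1531 and 1325 RPM of miR-451-5p lie far to the right; Pearson's r is 0.50, 0.55, 0.69 and 0.30 in that order.

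The marker miRNAs of other cell types were read in the 2 libraries with the most miR-451-5p. In replicate 2 of day 120, with 1325 RPM, the neutrophil miRNA miR-223-3p was at 8.89 RPM against 0.374 to 2.69 RPM in the other libraries of its age. The lymphocyte miRNA miR-150 was at 432 RPM there, against 84.5 to 375. The summed level of the white cell and platelet list was 2831 RPM, against 1241 to 2183. In that sum miR-342-3p alone supplied 2150 RPM. miR-146a ranked 2 there, at 37.7 RPM against 25.1 to 84.2. The white cell sum and the erythroid sum were thus both highest in this library. The endothelial miR-126-5p was highest there too, at 623 RPM against 312 to 369, whereas the vessel sum ranked 4 of 5. The more abundant arm, miR-126-3p, ranked 2 there, at 9264 RPM against 7067 to 10951. The vessel sum was largely miR-143-3p, which averaged 63471 RPM over the 20 libraries, against 7569 RPM for miR-126-3p. In replicate 3 of day 1, with 1531 RPM, miR-223-3p was at 2.38 RPM, inside the 1.83 to 3.98 RPM of the other libraries, and the white cell sum of 1547 RPM ranked 4 of 5, although the white cell miR-146a was highest of its age at 31.6 RPM against 1.74 to 14.7. Its miR-126-3p was 12806 RPM against 5465 to 7165, and its miR-126-5p 561 RPM against 78.1 to 252.1. The sum of the miRNAs abundant in red cells but shared with other tissues, such as miR-92a and miR-16b, ranked 4 of 5 in that library, at 9761 RPM. Its neuronal sum of 341024 RPM and its liver sum of 1710 RPM were the highest of day 1. Of the liver list, however, miR-122 ranked 4 of 5 there, at 17.5 RPM against 2.66 to 91.6. Both libraries thus had the highest miR-126-5p of their age, but only the day 1 library had the highest miR-126-3p. White cell miRNAs were highest as a sum in the day 120 library alone. The part of these markers in the miR-451-5p level was not tested.

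By age, the summed erythroid level ranged over 90.5 to 1552, 149 to 290, 236 to 1338 and 182 to 349 RPM. White cell sums over 7 miRNAs had medians of 1779, 1630, 1916 and 1064 RPM, and 0 of the 7 passed limma in any comparison. Vessel sums over 10 miRNAs, largely miR-143-3p, had medians of 50861, 47683, 48180 and 52076 RPM, also with 0 called by limma. Among 18 tested miRNAs that red cells share with other tissues, 1 passed limma, lower at each later age than on day 1. Over all tested miRNAs 3.86%, 3.38% and 3.38% passed in these comparisons, so the counts of the white cell, vessel and red cell lists lie near the background. The 1 of 18 was miR-363-3p, with 108 ± 48.0 RPM on day 1 and 16.4 ± 3.42 RPM on day 180 (SD, n = 5 each). Of only 3 tested liver and plasma miRNAs, limma called 1 between days 1 and 60. This was miR-122, 3.78 log2 units higher on day 60 (SE 0.81, limma adjusted p = 0.011). Its medians were 17.9 RPM on day 1 and 139 RPM on day 60. Not every name sought was among the listed miRNAs: 11 of 14 were for the red cell list, 5 of 6 for the white cell list and 6 of 8 for the neuronal list.

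The fit of each miRNA on miR-451-5p within ages asked which levels went with it from animal to animal. limma called 0% of 413 miRNAs at an adjusted p under 0.05, although 69 had an unadjusted p under 0.05. The lowest adjusted p, 0.0755, was shared by 6 miRNAs: miR-19b-3p, miR-376c-3p, miR-219, miR-144-3p, miR-24-3p and miR-345-5p. The slope of miR-144-3p was 0.50 log2 units per log2 unit of miR-451-5p (SE 0.13), and miR-19b-3p, chosen after its value was seen, had the lowest unadjusted p and a steeper slope of 1.13. miR-144-5p had a slope of 0.49 (SE 0.20, limma adjusted p = 0.233), and the endothelial miR-126-3p had 0.26 (SE 0.13, limma adjusted p = 0.308). The median slope of all tested miRNAs was 0.13, so most slopes lay above 0 whatever the list. On the related measure of r with miR-451-5p over the 20 libraries, 243 of 354 known miRNAs were above 0. White cell miRNAs had 7 of 7 slopes above 0 and a median of 0.19, and vessel miRNAs had 9 of 10 and 0.28. Muscle had 6 of 6 and 0.22, neurons 7 of 9 and 0.16, and miRNAs abundant in red cells 12 of 18 and 0.17. Liver and plasma had 2 of 3 and 0.26, with miR-122 below 0 at -0.21. The count of calls was moved by single libraries: without replicate 1 of day 180 it was 13, without replicate 2 of day 120 it was 6 and without replicate 5 of day 120 it was 3.

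Adding miR-451-5p as a covariate to the age comparisons changed how many miRNAs passed. Between days 1 and 60 limma called 16 without it and 4 with it, and these 4 were among the 16. The fold changes of that comparison kept their pattern, with r = 0.98 across miRNAs between the fits with and without the covariate; miRNAs are not independent replicates. Between days 1 and 120 it called 14 and 31, with 13 shared, and between days 1 and 180 it called 14 and 15, with 14 shared. In the F test the calls were 8 and 15, with 8 shared. The 3 comparisons without day 1 stayed at 0 in limma with the covariate.

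By likeness of profile over the 20 libraries, the 5 of 354 known miRNAs closest to miR-451-5p were miR-376c-3p (r = 0.72), miR-30e-5p (0.69), miR-194 (0.69), miR-126-3p (0.69) and miR-21-5p (0.67). After stage means were subtracted they were miR-376c-3p (0.74), miR-24-3p (0.73), miR-195-5p (0.70), miR-194 (0.70) and miR-363-3p (0.69). All known miRNAs had a median r of 0.15 and a 5th to 95th percentile range of -0.33 to 0.58. On the same scale miR-144-5p would rank 39 over all libraries and 41 within ages, and miR-144-3p 23 and 1. The leading profiles shared the high library of day 1: miR-21-5p was at 53370 RPM there, against a day 1 mean of 15842 ± 21069 RPM (SD, n = 5). These correlations are descriptions over libraries that share their depth scaling. miR-376c-3p, miR-195-5p and miR-144-3p averaged only 2.63, 1.36 and 0.640 RPM.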

How the data were processed

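Per the labels' protocols, RNA extracted with Trizol went into NEBNext small RNA libraries. Bowtie is named in the submitters' processing notes; its version, the build and the counter are not given in these sources. The deposited values, headed TPM, were read as RPM of the miRNA reads, because low values were whole multiples of 1 step per library with no division by length. Dividing by the step gave whole reads, within 0.1 read, for 100% of values below 1000 reads. A further deposited column holds the summed signal of the 20 libraries, at least 1.01 per miRNA.

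A miRNA at 1 RPM or more in 5 libraries was tested on log2(RPM + 1) with limma 3.58.1 (R 4.3.3), all 20 libraries in 1 fit of 4 ages, Benjamini-Hochberg adjusted over all tested miRNAs at 0.05. A slope fit added miR-451-5p to the ages. edgeR 4.0.16 and DESeq2 1.42.0 on the recovered reads were alternatives, as were other pseudocounts, filters and scalings, a replicate block and leaving out each library. Single values used exact permutation tests, and relations and ratios used permutation tests with 100000 resamples (scipy 1.17.1), all two-sided. No pair of libraries of an age agreed within sampling noise (40 pairs, smallest chi-square per degree of freedom 392). The scripts were tested on simulated reads.

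All erythroid rows and the 5 miRNAs most like miR-451-5p were named, and list members were named only as examples. The members and lists were chosen with earlier results of these data known.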

Additional observations from a re-analysis of the deposited data

Results flagged for a closer look

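In 3 of 16 groups of 5 libraries tested for a sample far from the others, the gap from 1 library to its nearest neighbour exceeded Dixon's 95% limit of 0.71 of the group's range. Chance alone gives about 1 such group in 20 for normally distributed values, and RPM values are skewed. miR-451-5p in replicate 3 of day 1 was at 1531 RPM, with the next library at 457 RPM and a gap of 0.743 of the range. miR-451-5p in replicate 2 of day 120 was at 1325 RPM, with the next at 540 RPM and a gap of 0.718. miR-144-3p in replicate 2 of day 120 was at 1.56 RPM, with the next at 0.449 RPM and a gap of 0.713. The last of these rests on few reads. On the log2(RPM + 1) scale, tried after seeing the data, the gaps were 0.421, 0.515 and 0.606 of the range, and none of the 3 exceeded the limit.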

How the results depend on the processing

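Of 534 values for the 18 erythroid changes under the alternatives, 0 passed adjustment and the smallest adjusted p was 0.0972, from DESeq2. Direction held in 16 of the 18 changes. It turned for miR-451-5p from day 1 to day 180 (0.0128 with median-of-ratios scaling, and -0.69 to 0.34 with 1 library left out, the latter without replicate 3 of day 1) and for miR-144-5p from day 60 to day 120 (-0.11 to 0.49 with 1 library left out; -0.11 without replicate 4 of day 60, -0.04 without replicate 2 of day 120). The comparisons of day 120 with 60, 180 with 120 and 180 with 60 had 0 calls under every alternative run. miR-144-3p fell below the filter in 5 of the fits that left a library out and has no value there.

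Counts over all miRNAs moved more. Between days 1 and 60 the 16 calls became 86 with DESeq2, 57 with edgeR and TMM, 62 with edgeR and library size alone, 40 with median-of-ratios and 32 with quantile scaling, 9 with no filter, 4 with miR-451-5p as covariate and 4 with only the 2 ages fitted. Between days 1 and 120 the 14 became 74, 43, 35, 36 and 38 in the same order of tools and scalings, 31 with the covariate and 4 with only the 2 ages. Between days 1 and 180 the 14 became 61, 22, 48, 23 and 26 in that order, 8 with no filter, 5 with a filter at 10 RPM, 7 with a pseudocount of 0.1 and 5 with only the 2 ages. The 8 of the F test became 90, 39, 53, 30 and 27 in that order and 15 with the covariate. The 0 slopes on miR-451-5p became 3 with no filter and 1 with a pseudocount of 5. Leaving out 1 library gave 2 (replicate 4 of day 60) to 43 (replicate 4 of day 1) calls for day 60, 7 (replicate 3 of day 120) to 29 (replicate 5 of day 1) for day 120, 5 (replicate 1 or 5 of day 180) to 31 (replicate 5 of day 1) for day 180, 5 (replicate 2 or 3 of day 1) to 16 (replicate 4 of day 1) in the F test, and 0 to 13 slopes. The count moved over 1.5 times for 11, 5, 9 and 4 of the 20 libraries. The cause was not tested.

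The relation of miR-451-5p with miR-126-3p was r = 0.56 with median-of-ratios scaling (adjusted permutation p = 0.0533). There, those with miR-144-5p and miR-144-3p were 0.47 and 0.38, and with a pseudocount of 0.1 they were 0.48 and 0.51. None of these 5 passed adjustment. Without 1 library, r ran from 0.57 to 0.74 for miR-126-3p, 0.32 to 0.57 for miR-144-5p, 0.42 to 0.60 for miR-144-3p, 0.04 to 0.38 for miR-223-3p and -0.10 to 0.15 for depth. The call was lost for miR-126-3p without replicate 3 of day 1, for miR-144-3p without replicate 2 of day 120 or replicate 3 of day 1, and for miR-144-5p without either of these, replicates 2 or 4 of day 60, 3 or 5 of day 120, or 4 or 5 of day 180. The share of variance between ages of the ratio to miR-144-5p ran from 23.8% to 48.7%, and of that to miR-144-3p from 50.6% to 76.4% (36.0% with a pseudocount of 5).

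Replicate numbers recur across ages but did not pair the libraries: over 30 same-numbered pairs the mean correlation of deviations was 0.05, range -0.71 to 0.54, and 4 of 20 libraries correlated best with their own number. With the replicate block the counts were 21, 0, 0, 18, 14 and 0 in the 6 comparisons and 9 in the F test, and 0 erythroid miRNAs passed.

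With 5 animals an age, the p-values of age differences set each difference against the spread between these libraries. Depth limits the miR-144 arms and miR-451-3p, not miR-451-5p.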

Other observations

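The library of day 1 that differed from the rest, replicate 2, had a mixed profile of blood miRNAs. Its lymphocyte miRNA miR-150 was at 1498 RPM, against 135 to 330 RPM in the other 4 libraries of its age, whereas miR-146a was at 1.74 RPM, against 10.7 to 31.6. The white cell and platelet sum was the highest of its age at 3348 RPM, and miR-92a-3p, abundant in red cells and in many other tissues, was the highest at 9562 RPM, against 1630 to 5013. The endothelial miR-126-5p was the lowest at 78.1 RPM, against 120 to 561. The neuronal sum was also the lowest of its age, at 169292 RPM.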
